A study of Mus musculus with 20 samples.

Results

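The levels of 4 mature miRNAs of blood vessel walls, miR-126a-3p, miR-126a-5p, miR-143-3p and miR-145a-5p, were described in small RNA libraries of mouse ventral hippocampus. They were chosen by name, as the rows mmu-mir-126a-3p, mmu-mir-126a-5p, mmu-mir-143-3p and mmu-mir-145a-5p, 4 of the 281 miRNAs of the deposited expression table. The first group held 10 male wildtype C57BL/6JOlaHsd mice given cannabidiol (CBD), a non-intoxicating compound of the cannabis plant, at 200 mg/kg/day for 5 days by intraperitoneal injection, with 2 injections a day. The second group held 10 mice of the same strain, sex and genotype given vehicle on the same schedule. All were naïve, without a disease model, and the right ventral hippocampus of each mouse gave 1 library. Animals were compared to see how CBD affects miRNAs in such mice.

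As background, miR-126 is made from an intron of Egfl7, a gene of endothelial cells, which line vessels. Both arms of its hairpin are used, and the 3p arm is known to sustain the response of endothelium to vascular growth factors. The hairpins of miR-143 and miR-145 lie side by side and are processed from a shared primary transcript. They are known for keeping vascular smooth muscle in its contractile state, and pericytes and fibroblasts also make them. In brain tissue the miR-126 arms are therefore read as endothelial miRNAs, and miR-143 and miR-145 as miRNAs of the mural cells around the endothelium.

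The mature sequence of miR-126a-3p and its hairpin are shown because both endothelial rows come from this hairpin. They are given 5′ to 3′ from RefSeq (GRCm38.p6), where 1 of the 4 members matched a mature entry. Capitals mark the seed, bases 2 to 8, in the first line, and the 3p arm, bases 46 to 67 of 73, in the second.
miR-126a-3p: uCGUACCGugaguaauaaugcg
Mir126a hairpin: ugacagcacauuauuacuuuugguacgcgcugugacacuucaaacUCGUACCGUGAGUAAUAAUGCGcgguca
Among the 1738 mature mouse sequences of that table, 1 had the seed CGUACCG, which was miR-126a-3p itself.

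The Mir126a hairpin lies on chromosome 2 at 26591357 to 26591429 on the plus strand (GRCm38), inside Egfl7, which spans 26580014 to 26593120. Of the 9 annotated Egfl7 transcripts that span the hairpin, 8 have it in an intron and 1 in an exon. Gm20532, a longer gene on the same strand, also covers the hairpin, and Mir126b is annotated on the opposite strand at the same place. Neither arm of Mir126b is among the 281 rows, and no source used here says whether the counting used strand. The Mir145a and Mir143 hairpins lie on the minus strand of chromosome 18, at 61647825 to 61647894 and 61649196 to 61649258, with 1301 bases between them. In RefSeq both fall inside the noncoding gene Carmn, from 61645878 to 61665538. In GENCODE no gene overlaps either hairpin.

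Total reads per library lay between 326559 and 1245429 with CBD and between 242178 and 1169139 with vehicle. The deposited values are log2 reads per 1000000 of an effective library size, and whole reads were recovered from all of them. The effective size divided by total reads, here called the scaling factor, lay between 0.693 and 1.17. It was under 0.8 in 3 libraries, CBD replicates 6 and 8 and vehicle replicate 5. The technical table puts the libraries in runs 1 to 4, with 3, 3, 2 and 2 CBD libraries and 2, 3, 2 and 3 vehicle libraries, and no source used here says what a run was. Whole profiles depended on it, with 135 of 281 miRNAs, or 48%, differing between runs at an adjusted p under 0.05 (limma).

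All 4 miRNAs were well above the counting floor in every library. By mean level over the 20 libraries, miR-145a-5p stood at rank 68 of 281 with a log2 level of 10.68, miR-143-3p at rank 78 with 10.43, miR-126a-5p at rank 106 with 9.48 and miR-126a-3p at rank 129 with 8.69. A read stands for a mature miRNA whatever its length, but adapter ligation favours some miRNAs, so this order is of reads and not of molecules. The fewest reads were 58, for miR-126a-3p in CBD replicate 6, with an exact 95% Poisson interval of 44.0 to 75.0 reads, or 7.58 to 8.34 on the log2 level. That interval covers counting error only, as does every other one here. The lowest read numbers elsewhere were 71 for miR-126a-5p, 183 for miR-143-3p and 247 for miR-145a-5p.

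The endothelial rows had lower levels with CBD than with vehicle in the mean, and no difference passed the test over all 281 miRNAs. For miR-126a-3p, the lowest, median and highest log2 levels were 7.61, 8.44 and 9.03 in CBD libraries and 8.38, 8.96 and 9.56 in vehicle libraries. The groups overlapped, with 4 CBD libraries below every vehicle library and 5 vehicle libraries above every CBD library. The means were 8.43 ± 0.50 in CBD libraries and 8.95 ± 0.37 in vehicle libraries (SD, n = 10 each). The log2 difference was -0.52 (SE 0.21, 95% interval -0.95 to -0.09, unadjusted p = 0.0202, limma adjusted p = 0.470), which is 30.2% lower on the linear scale. In such bulk libraries, fewer endothelial cells and less miRNA per cell cannot be told apart.

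The other arm of the hairpin, miR-126a-5p, had lowest, median and highest levels of 8.12, 9.34 and 9.77 in CBD libraries and 8.55, 9.94 and 11.03 in vehicle libraries. All 10 CBD libraries were below the vehicle mean, which held for 2.49% of the 281 miRNAs, and 7 vehicle libraries were above every CBD library. The means were 9.11 ± 0.60 in CBD libraries and 9.84 ± 0.63 in vehicle libraries (SD, n = 10 each). The log2 difference was -0.74 (SE 0.27, 95% interval -1.28 to -0.19, unadjusted p = 0.0108, limma adjusted p = 0.470), or 39.9% lower. Both arms come from 1 precursor, so they are not separate evidence.

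Of the smooth muscle rows, miR-145a-5p had a lower mean with CBD and miR-143-3p had nearly equal means, and neither passed the test. For miR-145a-5p the lowest, median and highest levels were 9.42, 10.39 and 11.07 in CBD libraries and 9.76, 10.81 and 12.36 in vehicle libraries. The ranges overlapped widely, with 4 vehicle libraries above every CBD library and 1 CBD library below every vehicle library. The means were 10.40 ± 0.51 in CBD libraries and 10.95 ± 0.74 in vehicle libraries (SD, n = 10 each), with a log2 difference of -0.55 (SE 0.27, 95% interval -1.10 to 0.01, unadjusted p = 0.0539, limma adjusted p = 0.578). The difference rested in part on vehicle replicate 4, the highest library, without which it was -0.39 (unadjusted p = 0.124, limma adjusted p = 0.644).

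For miR-143-3p the lowest, median and highest levels were 9.68, 10.36 and 12.14 in CBD libraries and 9.56, 10.25 and 12.12 in vehicle libraries. No CBD library was below every vehicle library and no vehicle library above every CBD library. The means were 10.42 ± 0.72 in CBD libraries and 10.44 ± 0.74 in vehicle libraries (SD, n = 10 each). The log2 difference was -0.02 (SE 0.30, 95% interval -0.64 to 0.61, unadjusted p = 0.961, limma adjusted p = 0.989), and its sign changed under several settings given in the closing section. Whether its difference was unlike those of the other members was not tested.

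**Figure D1:**
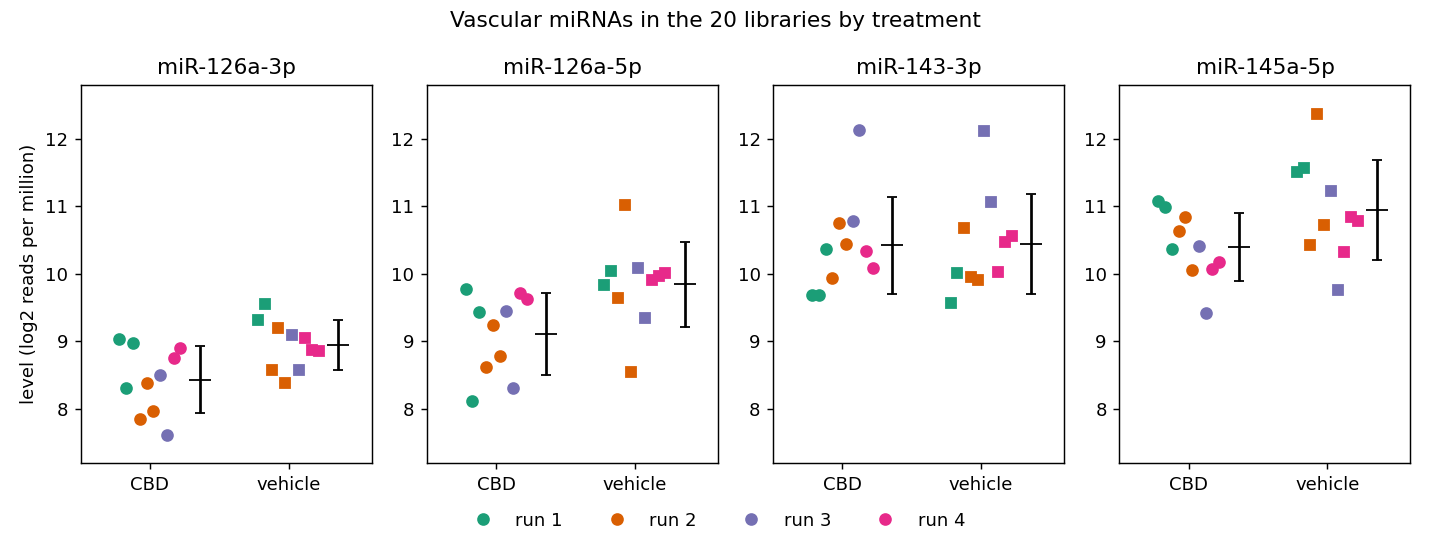
Log2 level (reads per 1000000 of the effective library size) of each miRNA in the 20 libraries, CBD as circles and vehicle as squares, coloured by run, with group mean and SD (n = 10 each) as bars. For miR-126a-5p all CBD points lie below the vehicle mean of 9.84, while for miR-143-3p the group means of 10.42 and 10.44 nearly coincide.

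Over the 4 members, 0 of 4 passed the adjusted threshold in the limma fit, as did 0 of 281 miRNAs, or 0%. At an unadjusted p under 0.05, 2 of 4 were called, both lower with CBD, where 5.34% of the 281 were called lower and 2.49% higher. The 2 called were the arms of miR-126a. The call of miR-126a-3p was lost with median centring (-0.44, p = 0.0514), with quantile normalisation (-0.44, p = 0.0583), without run 2 (-0.46, p = 0.0616) and without run 3 (-0.45, p = 0.0570), all unadjusted in limma, while that of miR-126a-5p held in each of these. Over the table, median centring gave 13 miRNAs called higher and 4 lower, against 7 higher and 15 lower as deposited. The median of the 4 differences was not read as a result, since the median over all 281 was itself below 0, at -0.08. With array weights, which count some libraries more than others, 24 of 281 passed after adjustment, and miR-126a-5p was among them (-0.60, limma adjusted p = 0.0354). The 3 largest weights, 3.70 to 4.62, fell on the vehicle libraries of run 4, and with array weights and run as a further term 0 of 281 passed, with miR-126a-5p at -0.51 (limma adjusted p = 0.138). With voom weights 0 passed.

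Within runs, the direction was the same in 4 of 4 runs for 3 of the 4 members, which was the case for 14.2% of all 281 miRNAs in the same direction. For miR-126a-3p the differences in runs 1 to 4 were -0.66, -0.64, -0.78 and -0.10, and for miR-126a-5p -0.83, -0.86, -0.83 and -0.29. For miR-145a-5p they were -0.72, -0.66, -0.58 and -0.53. For miR-143-3p they were 0.12, 0.20, -0.14 and -0.14. The difference between CBD and vehicle was smallest in run 4 for both arms of miR-126a, but the interaction of treatment and run did not pass for any member (adjusted p between 0.903 and 0.993) nor for any of the 281 miRNAs (0%).

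Each run was small, with 4 to 6 libraries. For miR-126a-3p every CBD library of the run was below every vehicle library in runs 1 and 3, as was the case in runs 1 and 4 for miR-126a-5p and for miR-145a-5p. In miR-143-3p this happened in 0 of 4 runs. Separation in at least 2 of 4 runs was found in 14.9% of the 281 miRNAs. In run 1, for example, miR-126a-3p lay between 8.31 and 9.03 in the 3 CBD libraries and at 9.31 and 9.56 in the 2 vehicle libraries. In run 4 it lay at 8.76 and 8.90 in the 2 CBD libraries and between 8.86 and 9.06 in the 3 vehicle libraries.

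With run as a further term, the intervals of miR-126a-3p, miR-145a-5p and miR-143-3p narrowed, while that of miR-126a-5p did not. No member passed after adjustment. The difference was -0.54 for miR-126a-3p (95% interval -0.90 to -0.19, unadjusted p = 0.00444, limma adjusted p = 0.185). It was -0.71 for miR-126a-5p (95% interval -1.26 to -0.16, limma adjusted p = 0.225) and -0.63 for miR-145a-5p (95% interval -1.11 to -0.14, limma adjusted p = 0.225). For miR-143-3p it was 0.03 (95% interval -0.38 to 0.43, limma adjusted p = 0.959). At an unadjusted p under 0.05, 3 of 4 members were then called lower, where 10.7% of the 281 were. In an exact permutation test of treatment labels within runs, miR-126a-3p had p = 0.00108, the second smallest of the 281, with an adjusted p of 0.152. The values were 0.0200 for miR-126a-5p, 0.0198 for miR-145a-5p and 0.876 for miR-143-3p (exact permutation, adjusted p = 0.236, 0.236 and 0.962). By this test 3 of 4 members were called lower before adjustment, where 10.3% of the 281 were, and 0% passed after it.

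**Figure D2:**
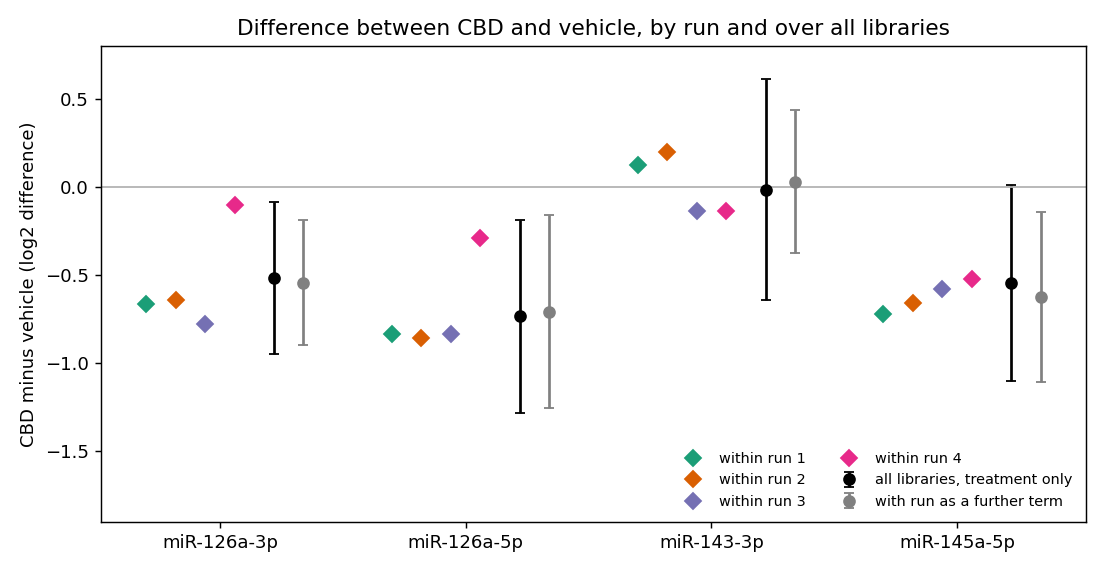
Log2 difference, CBD minus vehicle, within each run (diamonds) and over the 20 libraries with 95% intervals, treatment only (black) and with run as a further term (grey). The points of miR-145a-5p lie between -0.72 and -0.53 in all runs, those of miR-126a are nearest to 0 in run 4, and those of miR-143-3p lie on both sides of 0.

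Between runs the order of miR-143-3p and miR-145a-5p turned round. The largest spread among the 4 was that of miR-143-3p, whose run means were 9.86 ± 0.33, 10.28 ± 0.40, 11.53 ± 0.70 and 10.30 ± 0.23 on the log2 scale from run 1 to run 4 (SD, n = 5, 6, 4 and 5). It differed between runs in the limma fit with treatment (adjusted p = 0.00258), at rank 10 of 281 by p, where 48% of all 281 passed. The 4 libraries of run 3 ranged from 10.78 to 12.14, above all 16 libraries of the other runs, though the highest of run 2 came close at 10.76. Its neighbour miR-145a-5p ran the other way, with means of 11.10, 10.84, 10.20 and 10.44 and an adjusted p of 0.0685. For miR-126a-3p the means were 9.04, 8.39, 8.45 and 8.89 (limma adjusted p = 0.0481, which did not hold under 2 of 7 other settings), and for miR-126a-5p 9.44, 9.31, 9.30 and 9.85 (limma adjusted p = 0.574).

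**Figure D3:**
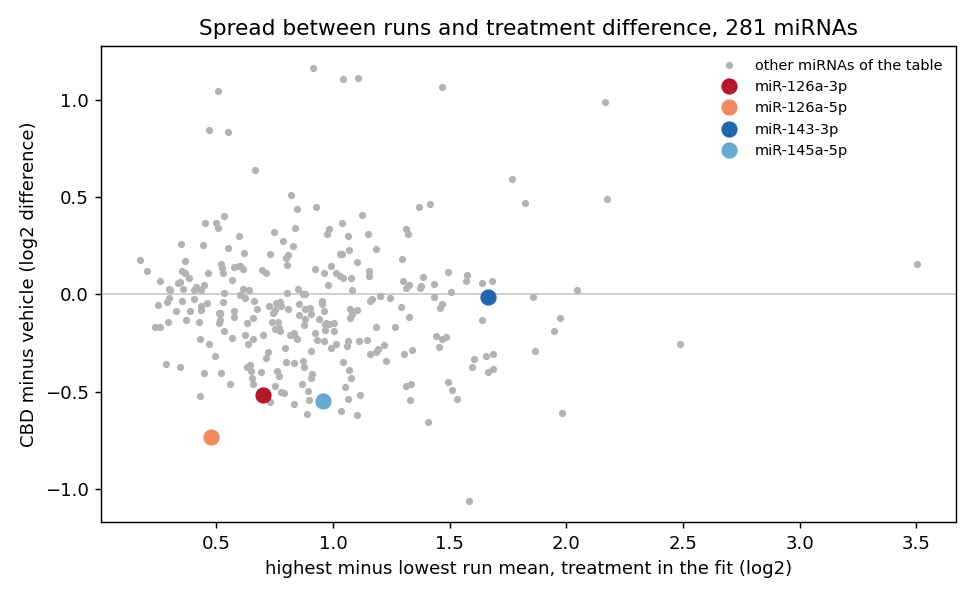
Treatment difference (CBD minus vehicle, log2) against the spread between run means (log2) for 281 miRNAs, the 4 vascular miRNAs in colour. The point of miR-143-3p lies to the right of the other 3 members, at a spread of 1.66, with a treatment difference near 0, while miR-126a-5p has a small spread, 0.48, and a difference of -0.74.

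Ratios of reads within a library do not depend on how libraries are scaled, so endothelial and smooth muscle miRNAs were set against each other in this way. As scores over chosen members they are given with no test. Reads of miR-126a, both arms summed, were fewer than those of miR-143-3p plus miR-145a-5p in 20 of 20 libraries. The log2 ratio had a lowest, median and highest value of -3.34, -1.69 and -0.82 in CBD libraries and -2.06, -1.23 and -0.65 in vehicle libraries. Its means were -1.69 ± 0.77 in CBD libraries and -1.34 ± 0.41 in vehicle libraries (SD, n = 10 each), a difference of -0.35 that is smaller than the spread within either group. On the linear scale the ratio ran from 0.0987 in CBD replicate 8 to 0.638 in vehicle replicate 8.

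By run, the endothelial to smooth muscle log2 ratio had means of -1.38, -1.72, -2.13 and -0.92 in runs 1 to 4. The 5 libraries of run 4 lay between -1.14 and -0.65 and those of run 3 between -3.34 and -1.55, with no overlap. The difference of CBD minus vehicle in runs 1 to 4 was -0.30, -0.43, -0.64 and 0.11, so its sign turned in run 4. Without the 3 libraries with a scaling factor under 0.8, the difference over all runs was -0.19.

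The ratio depended on which smooth muscle miRNA was used. Against miR-143-3p, the log2 ratio of miR-126a-3p averaged -1.99 ± 1.07 in CBD libraries and -1.49 ± 0.89 in vehicle libraries (SD, n = 10 each). Against miR-145a-5p its median was -1.97 in CBD libraries and -1.98 in vehicle libraries, with SDs of 0.55 and 0.55 and a difference of means of 0.03. The mean differences of miR-126a-3p and miR-145a-5p, -0.52 and -0.55, were close in size. The order of runs depended on this choice too. Over miR-143-3p, miR-126a-3p averaged -0.83, -1.89, -3.08 and -1.41 in runs 1 to 4, lowest in run 3. Over miR-145a-5p it averaged -2.06, -2.45, -1.76 and -1.55, lowest in run 2. In that form run 3, at -2.14 to -1.18, overlapped run 4, at -1.96 to -1.28.

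The cluster neighbours varied widely against each other. The log2 ratio of miR-145a-5p over miR-143-3p ran from -2.71 in CBD replicate 8 to 2.41 in vehicle replicate 4, or from 0.152 to 5.31 on the linear scale. It was below 0 in 8 of 20 libraries, among them all 4 of run 3, whose mean was -1.32, against 1.24, 0.56 and 0.14 in runs 1, 2 and 4. Its means were -0.02 ± 1.15 in CBD libraries and 0.51 ± 1.19 in vehicle libraries (SD, n = 10 each). The SD over the 20 libraries was 1.17, beside 0.99 for miR-126a-3p over miR-143-3p, 0.62 for the summed ratio, 0.54 for miR-126a-3p over miR-145a-5p and 0.41 for the 2 arms of miR-126a. Both of the widest ratios thus hold miR-143-3p.

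The 5p arm of miR-126a gave more reads than the 3p arm in 19 of 20 libraries. The log2 ratio of 5p over 3p averaged 0.68 ± 0.34 in CBD libraries and 0.90 ± 0.46 in vehicle libraries (SD over 10 libraries each), a difference of -0.22. Its lowest value was -0.19 in CBD replicate 2, and its highest 1.83 in vehicle replicate 4, so that the 5p arm held from 0.878 to 3.56 reads for each read of the 3p arm. The run 1 mean of 0.41 was below those of 0.92, 0.86 and 0.96 in runs 2, 3 and 4.

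**Figure D4:**
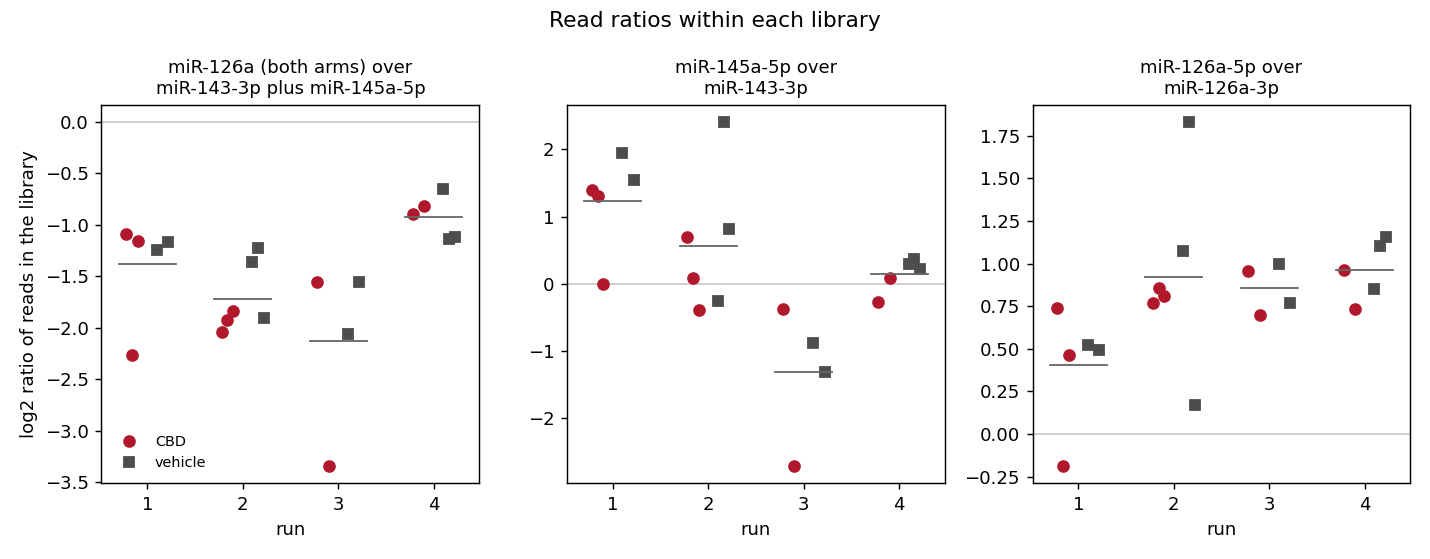
Log2 ratios of reads within each library by run, CBD as red circles and vehicle as grey squares, with the mean of each run as a line. The ratio of miR-145a-5p over miR-143-3p falls below 0 in all 4 libraries of run 3, and the ratio of miR-126a to both smooth muscle miRNAs is below 0 in every library.

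Levels of the members were also compared with each other across the 20 libraries, in 6 pairs with p-values adjusted over the 6. Libraries share scaling, and the levels share the depth of their library. The 2 arms of miR-126a varied together, with Pearson r = 0.83 (permutation test with 100000 resamples, p = 1e-05, which is the lowest value it allows, adjusted p = 6e-05) and Spearman rho = 0.86 (permutation test, adjusted p = 6e-05). Without the 2 libraries farthest from the median r was 0.77, with run and treatment means removed 0.89, and among the 6 libraries of run 2 alone 0.91 (exact permutation p = 0.0181, adjusted p = 0.108). The other runs, of 4 or 5 libraries, were too small for a value of their own.

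The smooth muscle miR-145a-5p had positive correlations with both endothelial arms, which stood at ranks 16 (3p) and 30 (5p) of 280 miRNAs by r. With miR-126a-3p it had r = 0.62 (permutation test, p = 0.00341, adjusted p = 0.0102) and rho = 0.55 (permutation test, adjusted p = 0.0357), and r = 0.57 without the 2 farthest libraries. With run and treatment means removed r was 0.60 (permutation test, adjusted p = 0.00994), and within run 2 it was 0.84 (exact permutation, n = 6, adjusted p = 0.146). Values with these means removed were permuted freely over the 20 libraries, here and for the other pairs. The levels as they stand were also permuted freely, across runs and treatments, in every pair. The p-values of both forms may therefore be too small. With miR-126a-5p r was 0.57 (permutation test, p = 0.00892, adjusted p = 0.0178) and rho 0.53 (permutation test, adjusted p = 0.0357). This r was 0.55 without the 2 farthest libraries and 0.64 with run and treatment means removed. Within run 2 it was 0.84 (exact permutation, n = 6, adjusted p = 0.186). Both relations lost their call without run 3, at r = 0.50 and 0.48, and without the 3 libraries of low scaling factor, at r = 0.47 and 0.47 (permutation test, adjusted p = 0.122 for each). The first also lost it without run 1 (r = 0.57, adjusted p = 0.0546, permutation test) and the second without run 2 (r = 0.45, adjusted p = 0.133, permutation test).

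No positive relation was seen between the neighbours miR-143-3p and miR-145a-5p. Their r was -0.43 (permutation test, p = 0.0595, adjusted p = 0.0893) and rho -0.46 (permutation test, adjusted p = 0.0653). It was -0.56 without the 2 farthest libraries and -0.16 with run and treatment means removed (permutation test, adjusted p = 0.758). With miR-126a-3p and miR-126a-5p, miR-143-3p had r = -0.32 and -0.09 (permutation test, adjusted p = 0.199 and 0.717) and rho = -0.26 and -0.01 (permutation test, adjusted p = 0.329 and 0.967). With run and treatment means removed these were -0.08 and 0.01, and without the 2 farthest libraries -0.15 and -0.16.

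**Figure D5:**
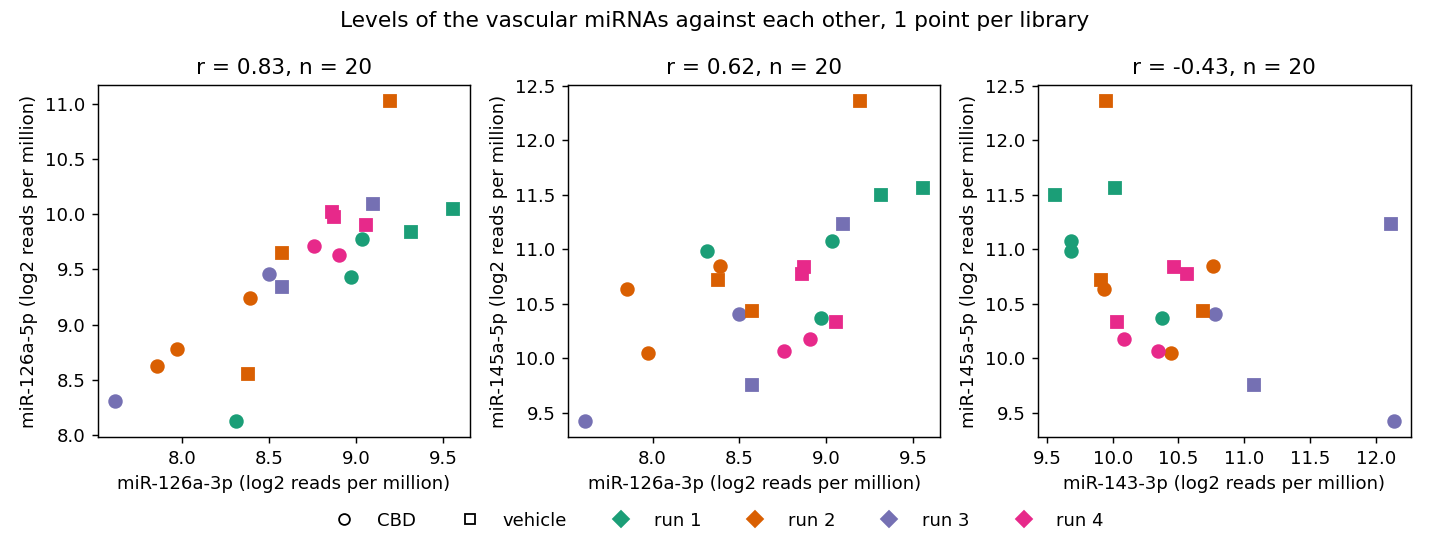
Log2 levels of 3 pairs of members in the 20 libraries, CBD as circles and vehicle as squares, coloured by run. The points of the 2 miR-126a arms follow a rising line (r = 0.83), and those of miR-126a-3p and miR-145a-5p a looser one (r = 0.62). For miR-143-3p and miR-145a-5p, with run 3 at the right, r was -0.43 and did not pass (permutation test, adjusted p = 0.0893). With run and treatment means removed it was -0.16.

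Set among the other 280 miRNAs, the arms of miR-126a were each other's nearest once run and treatment means were removed, at rank 1 of 280 by r in both directions. On the levels as they stand, miR-126a-5p was at rank 5 for miR-126a-3p. Its nearest outside the members were then miR-153-3p, a neuronal miRNA, at r = 0.86, miR-300-3p of the imprinted Dlk1-Meg3 region at 0.85 and miR-29a-3p at 0.84. For miR-126a-5p they were miR-195a-5p at 0.84, miR-24-2-5p at 0.83 and miR-27b-3p at 0.83. For miR-145a-5p, its neighbour miR-143-3p stood at rank 247 of 280, miR-126a-3p at rank 16 and miR-126a-5p at rank 30. In the other direction, miR-145a-5p stood at rank 36 for miR-126a-3p and at rank 27 for miR-126a-5p. The nearest of miR-145a-5p were miR-543-3p at 0.83, miR-329-3p at 0.76 and miR-874-3p at 0.76.

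For miR-143-3p the nearest were let-7i-5p at r = 0.79 and miR-98-5p at 0.78, both of the let-7 family, and miR-181d-5p at 0.73. The same 3 were nearest with run and treatment means removed, at 0.77, 0.73 and 0.60. In that form the nearest of miR-126a-3p were miR-381-3p, miR-26a-5p and miR-153-3p, at 0.82, 0.81 and 0.80, those of miR-126a-5p miR-381-3p, miR-29a-3p and miR-26a-5p, at 0.85, 0.82 and 0.82, and those of miR-145a-5p miR-543-3p, miR-434-5p and miR-425-5p, at 0.74, 0.73 and 0.72. These values, over 20 libraries, are a description. The endothelial and neuronal miRNAs named here share the scaling of their libraries.

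Other miRNAs linked to vessels were read from lists made by name. Of 16 further endothelium-linked miRNAs 11 were measured, with 9 below and 2 above 0 in the difference, where 173 of all 281 were below 0 and 108 above, a median of -0.23 beside -0.08 over all 281, and 1 at an unadjusted p under 0.05. That was miR-24-2-5p, of the miR-23a cluster, at 7.07 ± 0.36 in CBD libraries and 7.62 ± 0.59 in vehicle libraries (SD, n = 10 each), a log2 difference of -0.55 (limma adjusted p = 0.470), or -0.51 with the run term. By exact permutation within runs, miR-27a-3p, miR-24-2-5p, miR-23a-3p, miR-24-3p and miR-222-3p were called lower before adjustment. Their p lay between 0.00933 and 0.0445 (exact permutation, adjusted p between 0.217 and 0.329), where 10.3% of the 281 were called lower. The rest of the measured list was not called. The most abundant of the list, miR-101a-3p, had -0.20 (limma adjusted p = 0.869). Of 16 further miRNAs of smooth muscle, pericytes and fibroblasts 2 were measured, miR-22-3p at 0.05 and miR-21a-5p at -0.05. The passenger arms miR-143-5p and miR-145a-3p and the fibroblast pair miR-199a-3p and miR-214-3p were not among the 281 rows.

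Markers of blood and of other brain cells were read beside these. Of 7 red blood cell miRNAs 1 was measured, miR-486b-5p, with summed levels from 6.43 to 8.22 in CBD libraries and 6.05 to 9.03 in vehicle libraries and a difference of 0.01 (limma adjusted p = 0.989). The defining red cell miRNA miR-451a was not among the rows. Of 6 leukocyte and microglia miRNAs 2 were measured, both below 0, miR-150-5p at -0.13 and miR-146a-5p at -0.45 (unadjusted p = 0.733 and 0.206, limma), with summed levels of 11.53 to 14.28 with CBD and 11.26 to 14.59 with vehicle. All 4 oligodendrocyte miRNAs were below 0, as were 173 of all 281, with a median of -0.55 beside -0.08. At an unadjusted p under 0.05 there was 1 called lower, where 15 of 281 were, miR-338-3p at -0.62 (limma adjusted p = 0.470). Their summed levels were 9.81 to 11.67 with CBD and 9.99 to 12.63 with vehicle. The oligodendrocyte median was thus as low as the difference of miR-145a-5p, and the part of cell composition in the vascular values was not tested.

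Neuronal miRNAs were measured in 9 of 9 cases, 5 below and 4 above 0, with a median of -0.02. The most abundant, miR-9-5p, had 0.14 and miR-124-3p, with the smallest p of the list, -0.54 (limma adjusted p = 0.874 and 0.578). Their summed levels were 17.19 to 18.29 with CBD and 17.32 to 17.95 with vehicle. Of 8 choroid plexus and ependyma miRNAs 4 were measured, 1 below and 3 above 0, with summed levels of 12.46 to 14.53 with CBD and 12.07 to 15.08 with vehicle. Its most abundant member, miR-204-5p, had 0.45 (limma adjusted p = 0.811). No member of any of these lists passed after adjustment.

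Over the 20 libraries the scaling factor had r = 0.71 with miR-126a-3p, 0.58 with miR-126a-5p and 0.47 with miR-145a-5p. With miR-143-3p it had r = -0.36, and these values are a description with no test. The 3 libraries with a scaling factor under 0.8 had miR-126a-3p levels of 7.97, 7.61 and 8.38 in CBD replicates 6 and 8 and vehicle replicate 5, and the last 2 of these were the lowest of their groups. Without these 3 libraries the difference was -0.42 for miR-126a-3p (unadjusted p = 0.0374, limma adjusted p = 0.566), -0.74 for miR-126a-5p (limma adjusted p = 0.270), -0.41 for miR-145a-5p (limma adjusted p = 0.866) and -0.29 for miR-143-3p (limma adjusted p = 0.897).

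In the authors' deposited table, which gives its own fit, miR-126a-3p had the smallest p of all 281 miRNAs, with a log2 fold change of -0.54 and an adjusted p of 0.0566. In the authors' deposited table miR-126a-5p had -0.72 with the same adjusted p of 0.0566, miR-145a-5p -0.63 with 0.102 and miR-143-3p 0.02 with 0.977. The authors' deposited table has 66 miRNAs at an unadjusted p under 0.05, of which the 46 below 0 make 16.4% of the 281, and 0 at an adjusted p under 0.05. That table does not state which way its fold change runs. Its signs for the 4 members were those of CBD minus vehicle in the fit with run as a further term. Its values are not compared in size with the fits above.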

How the data were processed

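Small RNA libraries of right ventral hippocampus were made, per the labels' protocols, from Trizol total RNA with a TruSeq small RNA kit and size selection. The authors worked with mm10, edgeR and limma, per the submitters' processing notes. The aligner, the counter and the miRNA catalogue: not given in the sources used. The authors deposited log2 values for 281 miRNAs in 20 columns, matched by mouse number to the sample titles. Each equals log2 of (reads + 0.5) per 1000000 of the effective library size plus 1, and solving for reads gave whole numbers (tolerance 1e-06) in 100% of values. The authors deposited a comparison table with log2 fold changes, p-values, a t score and a log-odds score, and a fold ratio column that was not used. Total reads and run come from the deposited technical table.

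The main test was limma 3.58.1 (R 4.3.3) on the log2 values of all 281 miRNAs, fitted to treatment alone, with a variance trend, two-sided, with Benjamini-Hochberg adjustment over 281 and a threshold of 0.05. Further fits added run, or its interaction with treatment. Treatment labels were also permuted exactly within runs, in 12000 relabellings. Correlations used 100000 resamples in numpy 2.4.6. The fits were tested on simulated data. Replicate numbers follow accession order and name a mouse only. Of the 90 replicate pairs, each differed by more than counting error (chi-square per degree of freedom at least 19.2). The kit names no molecular identifiers.

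The members, lists and tests were chosen with earlier results of these data known. Named miRNAs are the 4 members, the 3 nearest to each by r, and for each list the most abundant and the one with the smallest p; miR-143-5p, miR-145a-3p, miR-199a-3p, miR-214-3p and miR-451a are named as not among the rows, and any other was chosen after its values were seen. Alternatives were a run term, other scalings, pseudocounts, filters, weights and variance models, and left-out libraries and runs.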

Additional observations from a re-analysis of the deposited data

Results flagged for a closer look

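In 18 groups of 10 libraries (4 miRNAs and 5 ratios in each treatment) the highest or the lowest library was set against the rest, and 4 stood apart by a gap of more than 0.466 of the group's range. Chance flags about 1 in 20 such groups. The miR-143-3p level of CBD replicate 8 was 12.14, where the next CBD library had 10.78. The same library had the lowest log2 ratios of miR-145a-5p over miR-143-3p, -2.71 with the next at -0.39, and of miR-126a-3p over miR-143-3p, -4.53 with the next at -2.47. These 3 are not separate, as each holds miR-143-3p of that library, whose scaling factor was 0.693, the lowest of the 20. Without CBD replicate 8 the miR-143-3p difference was -0.21 (unadjusted p = 0.448, limma adjusted p = 0.982). In the same run, vehicle replicate 6 had a miR-143-3p level of 12.12. The fourth was the log2 ratio of miR-126a-5p over miR-126a-3p in CBD replicate 2, -0.19 with the next CBD library at 0.46.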

How the results depend on the processing

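The differences of miR-126a-3p, miR-126a-5p and miR-145a-5p stayed below 0 under every alternative run, from -0.59 to -0.34, -0.81 to -0.51 and -0.63 to -0.36 under other scalings, models and weights, and from -0.59 to -0.43, -0.88 to -0.60 and -0.68 to -0.39 with each library left out. Leaving out a run gave -0.63 to -0.45, -0.82 to -0.68 and -0.61 to -0.50. None passed after adjustment but miR-126a-5p with array weights (-0.60), which gave 1 member called in place of 0, and 0 with run added; the cause was not tested. The sign of miR-143-3p turned with the run term (0.029), median centring (0.065), median-of-ratios factors (0.0053), the exact test within runs (0.028) and without run 1, 3 or 4 (0.041, 0.015 and 0.00039), and its range with each library left out was -0.21 to 0.17. The spread of miR-126a-3p between runs lost its call with median-of-ratios factors (0.66, adjusted p = 0.0613, limma) and with 5 reads added (0.66, adjusted p = 0.0539, limma). Of the correlations, that of miR-126a-3p and miR-145a-5p lost its call without run 1 (0.57), without run 3 (0.50) and without the 3 libraries of low scaling factor (0.47), and that of miR-126a-5p and miR-145a-5p without run 2 (0.45), without run 3 (0.48) and without those libraries (0.47); fewer samples enter these. The correlation of miR-126a-5p and miR-143-3p turned to 0.055 with total reads, 0.011 with run and treatment means removed, 0.10 without run 3 and 0.14 without those libraries. That of miR-143-3p and miR-145a-5p was called without the 2 farthest libraries (-0.56). Leaving out the libraries with a scaling factor under 0.8, and the alternatives of the pair ratios, were chosen after seeing the data. The filter at 10 CPM removed no miRNA. At unadjusted p under 0.05, 7 miRNAs were higher and 15 lower, or 13 and 4 with median centring. No paired analysis was possible because the labels give each mouse a number of its own. Counting error limits the lowest values most, down to 58 reads of miR-126a-3p.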

Other observations

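Among the endothelium-linked list, 4 mature miRNAs that the miR-23a cluster can give stood close together, a set chosen after its values were seen. The log2 difference of CBD minus vehicle was -0.51 for miR-23a-3p, -0.50 for miR-27a-3p, -0.55 for miR-24-2-5p and -0.42 for miR-24-3p, and none passed after adjustment (limma adjusted p between 0.470 and 0.591). Of the others, miR-221-3p had -0.21, miR-222-3p -0.19 and miR-92a-3p 0.18. With run means removed, the rest of the list had -0.48 (miR-296-5p), -0.18 (miR-130a-3p), -0.13 (miR-101a-3p) and 0.09 (miR-210-3p). In that form the cluster miRNAs ran from -0.57 to -0.46, so miR-296-5p lay within their range.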
